A study of Rattus norvegicus with 20 samples.

Results

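Neonatal rat heart cultures given diclofenac at reference concentration 1 were compared at 24 h and at 6 h. The comparison used 3 arrays for each time, which is 6 of the 20 arrays of the series, and was chosen by the concentration and time in the sample titles. Every culture came from neonatal rat heart tissue labelled as cardiomyocyte, was grown for one day in DMEM and, in these groups, then received diclofenac. Total RNA was amplified, coupled to Cy3 and read on 1-colour Agilent rat arrays. The other groups used here were untreated cultures (2 arrays, with no time in the labels) and cultures given 1/5 or 1/25 of that concentration for 6 h or 24 h (3 arrays each). No molar value of the concentrations is stated, and no untreated culture is labelled as kept for 24 h, so drug exposure and culture age cannot be told apart. Whether replicate arrays stem from separate cultures is not stated, so the p-values reflect the spread among these arrays alone, which may be technical.

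Diclofenac is a non-steroidal anti-inflammatory drug that blocks the cyclooxygenases encoded by Ptgs1 and Ptgs2, which make the precursor of the prostaglandins and thromboxane. Neonatal heart cultures contain cardiomyocytes together with fibroblasts, smooth muscle cells, endothelial cells and blood-derived cells, and the non-muscle cells can go on dividing in culture. In such a mixture fewer cells of a type and less RNA per cell cannot be told apart.

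All levels below are the log2 processed signal of a probe minus the 75th percentile of its array, so 0 is the level of a bright probe and negative values are dimmer. The scanner software marks on each array which probes are well above background. The 6 arrays had 82.5% to 88.2% of probes well above background, and the times did not separate on this share (84.2 ± 1.73% at 24 h against 86.2 ± 1.82% at 6 h, SD, n = 3 each; exact two-sided permutation p = 0.3, with 0.1 the smallest possible). Saturated probes made up 10.8%, 8.99% and 10.2% of the 24 h arrays and 8.97%, 8.11% and 8.84% of the 6 h arrays, so the times did not overlap (two-sided exact permutation p = 0.1, the smallest that 3 arrays against 3 can give). Defining cardiomyocyte markers were present. Tnnt2 (cardiac troponin T) and Actc1 (cardiac actin) were saturated on all 3 arrays at 6 h, and Myh6 (alpha myosin heavy chain) had means of -1.12 at 6 h and -1.06 at 24 h. Col1a1 and Fn1, which fibroblasts make, were saturated on all 6 arrays. The 6 h arrays were on slides 1 and 2 of the first scan day and the 24 h arrays on slide 4 of the second, so time cannot be told apart from slide and scan day.

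The relative signal of 3' and 5' probes also differed between the times. Among 2086 genes with probes at separate places on one strand, the probe nearest the 3' end was brighter than the probe nearest the 5' end by a median of 1.41 ± 0.268 (log2, SD, n = 3) at 24 h and 1.00 ± 0.0303 at 6 h. All 24 h arrays (1.17, 1.70 and 1.37) lay above all 6 h arrays (1.03, 1.00 and 0.971), with an exact permutation p of 0.1, the smallest this design allows. The median change from 6 h to 24 h was -0.0189 for the 3' probes and -0.414 for the 5' probes. The part of this measure, or of saturation, in the results below was not tested.

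**Figure D1:**
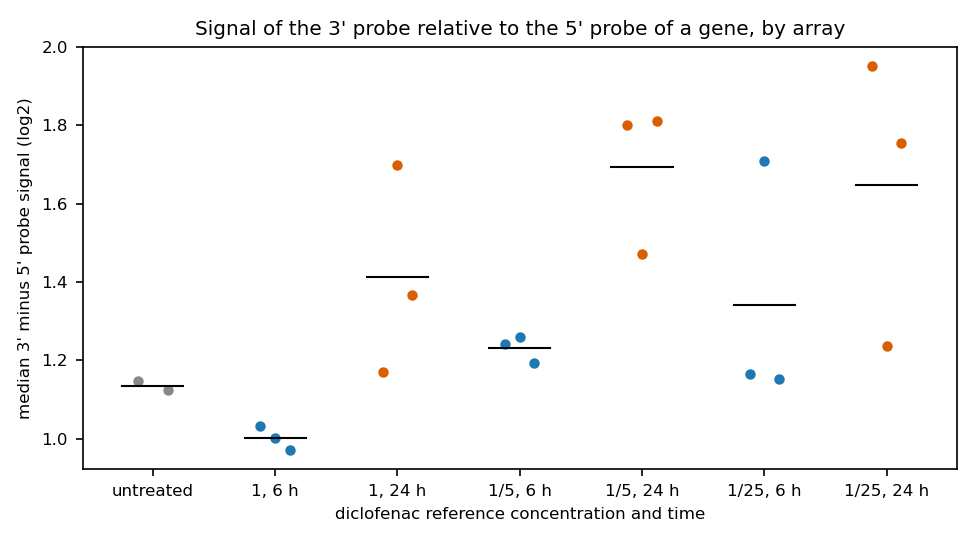
Median difference between the probe nearest the 3' end and the probe nearest the 5' end of a gene (log2, vertical axis) on each array, by group (horizontal axis; points are arrays, bars are group means). At reference concentration 1 the 3 arrays at 24 h (1.17 to 1.70) lie above the 3 arrays at 6 h (0.971 to 1.03).

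Across 30506 genes tested, 71 passed an adjusted p of 0.05 (limma, group means over all 20 arrays, Benjamini-Hochberg), which is 0.233% of the genes. Of these, 17 rose at 24 h (0.0557%) and 54 fell (0.177%). None of the 71 had overlapping arrays at the 2 times. Non-overlap alone was common: all 24 h arrays lay above all 6 h arrays for 16.1% of all genes and below them for 22.4%, or 38.5% together. An unadjusted p under 0.05 was reached by 4199 genes. All genes had a median change of -0.09, and 59.6% of them were below 0. This depends on the scaling, since centring each array on its median in place of the 75th percentile moved the median change by 0.36, to 0.27.

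The number of calls depended on which arrays set the spread. A fit on the 6 arrays alone called 2526 genes, 8.28% of those tested, with 874 higher (2.87%) and 1652 lower (5.42%), and these included all 71. The median spread within a group was 0.202 at 6 h and 0.366 at 24 h, against 0.962 in the cultures given 1/5 for 24 h. Restricting the test to probes well above background on all 6 arrays called 0 of 27828 genes by limma (3348 at an unadjusted p under 0.05), and leaving out any 1 of the 6 arrays left 9 to 33 calls.

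**Figure D2:**
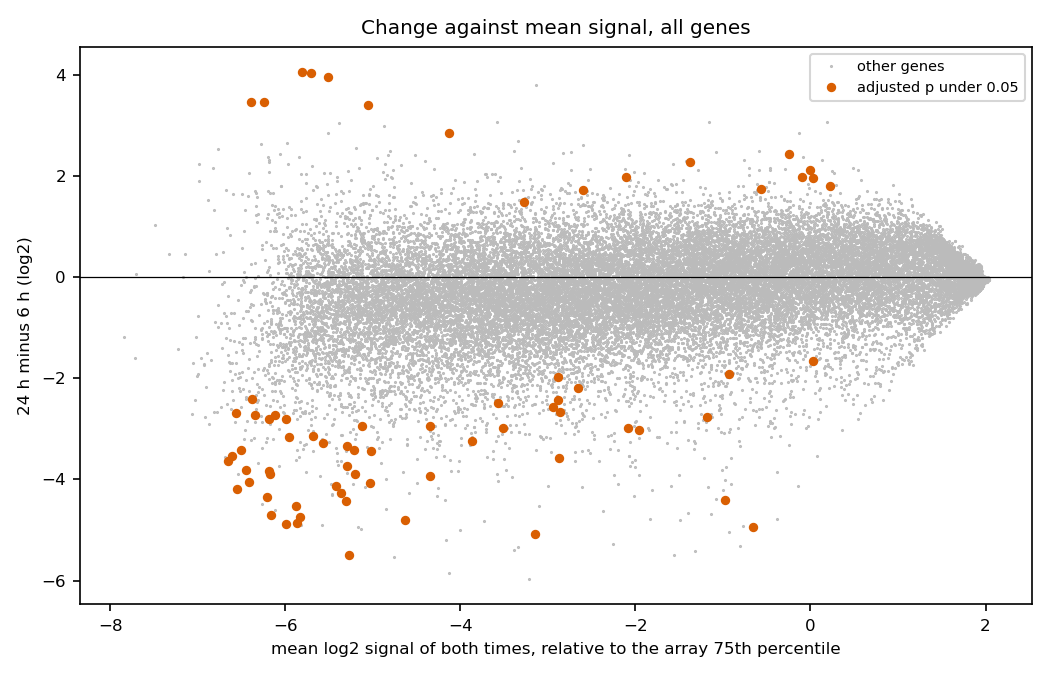
Change from 6 h to 24 h (log2, vertical axis) against the mean level of both times (log2 relative to the 75th percentile of the array, horizontal axis) for each gene; orange points passed the test. By this mean, which includes the 24 h level, the falls that passed lie mainly among dim genes, and no gene of the brightest of 4 equal groups passed.

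Falls were concentrated among dim probes. Genes were split by mean signal into 4 groups of equal size. The mean includes the 24 h arrays, so a fall itself moves a gene towards the dim groups, which fixes part of the counts by group. In the dimmest group the median change was -0.50 and 72.5% of genes were below 0, against -0.02 and 52.7% in the brightest. The dimmest group held 47 of the 71 calls, 40 of them falls. Of the 54 genes that fell, 32 were not well above background on any 24 h array, although this was so for 0.81% of all genes, and the filter that kept a probe needed only one group above background. For such genes, and for rises from background, the fold is given as a bound. It is taken from the dimmest signal that each array still marked as well above background, or from the probe's own signal where that was brighter.

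Most of the genes that fell had been higher at 6 h than in the untreated cultures. Among the 54, 38 had a 6 h mean more than 1 above the untreated mean, and 18 of these were at 24 h within 1 of it. Another 15 were within 1 of the untreated level at 6 h and more than 1 below it at 24 h. Of the 17 genes that rose, 16 were within 1 of the untreated mean at 6 h and more than 1 above it at 24 h. These counts describe the called genes and share the 6 h and 24 h arrays with the calls. Of the 54, 18 were not well above background on any 24 h array or any untreated array. The filter could keep such a gene only through a group where it was high, which fixes part of these counts. Over all genes the median of the 6 h level minus the untreated level was 0.01.

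Of the 17 genes that rose, 4 have a gene symbol: Igtp, Akr1c14, Akr1c15 and Thbd. Akr1c14 and Akr1c15 encode aldo-keto reductases, enzymes that reduce ketones and aldehydes with NADPH, and they are neighbours on rat chromosome 17. Akr1c14 is the rat 3-alpha-hydroxysteroid dehydrogenase, which acts on steroids and prostaglandins. Thbd encodes thrombomodulin, the endothelial receptor that turns thrombin towards activation of protein C. Igtp encodes a GTPase that interferon gamma induces. The 60-base probes that measured them are shown because each of these results rests on a single probe, with positions on build rn3 from the array files:
Akr1c14 probe, chr17:77327921-77327980, minus strand: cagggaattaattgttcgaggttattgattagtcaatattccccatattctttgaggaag
Akr1c15 probe, chr17:77352210-77352269, minus strand: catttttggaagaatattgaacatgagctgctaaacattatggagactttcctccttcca
Thbd probe, chr3:137064542-137064601, minus strand: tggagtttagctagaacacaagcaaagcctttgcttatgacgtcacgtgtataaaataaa
Igtp probe, chr10:43865662-43865721, plus strand: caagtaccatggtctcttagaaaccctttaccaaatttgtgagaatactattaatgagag

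Akr1c14 lay at -7.66, -8.26 and -8.43 at 6 h, at -5.66, -3.80 and -4.52 at 24 h, and at -7.81 and -8.10 in untreated cultures. It was not well above background on any 6 h array and was on all 3 at 24 h. The gene rose by 3.46 ± 0.68 (log2, SE; adjusted p = 0.0433), which is at least 3.17-fold. The call was lost in each fit that left out 1 of the 6 arrays (adjusted p 0.05 to 0.252).

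Akr1c15 lay at -2.56, -2.48 and -2.54 at 6 h, and at -0.55, -0.04 and -0.13 at 24 h, with untreated levels of -2.25 and -2.76. Its arrays were well above background throughout, and the times were far apart relative to their spread. The rise was 2.29 ± 0.39 (log2, SE), or 4.88-fold, with an adjusted p of 0.0255. It kept the call in 1 of 6 fits that left out an array (adjusted p 0.0484 to 0.126).

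Thbd was the brightest of the 4, at -0.83, -1.09 and -0.96 at 6 h and 1.18, 0.81 and 1.03 at 24 h. The untreated arrays (-0.61 and -0.31) lay between the 2 times. It rose 3.92-fold, by 1.97 ± 0.34 (log2, SE; adjusted p = 0.0255). The call was lost in each fit without 1 of the 6 arrays, with adjusted p of 0.063 to 0.12.

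Igtp lay at -7.78, -8.29 and -7.86 at 6 h, none of them well above background, and at -3.98, -4.26 and -5.32 at 24 h. Untreated cultures (-7.91 and -7.80) were at the 6 h level. It rose by 3.46 ± 0.44 (log2, SE; adjusted p = 0.00325), at least 3.49-fold, and passed in all 6 fits that left out an array (adjusted p 0.00338 to 0.0335). With the normexp background correction its adjusted p was 0.0649.

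The 250 bases upstream of the start sites of the 2 aldo-keto reductases and of Igtp are shown because these genes rose, the first pair from neighbouring positions. The sequences are from RefSeq on build GRCr8, which is not the build of the array files, and the capitals mark matches on either strand to TGACNNNGC (the core of the antioxidant response element), TTCNNNGAA (the gamma-activated site bound by STAT proteins) or GAAA followed by any 2 bases and GAAA (the core of the interferon-stimulated response element):
Akr1c14, chr17:71083185-71083434, minus strand: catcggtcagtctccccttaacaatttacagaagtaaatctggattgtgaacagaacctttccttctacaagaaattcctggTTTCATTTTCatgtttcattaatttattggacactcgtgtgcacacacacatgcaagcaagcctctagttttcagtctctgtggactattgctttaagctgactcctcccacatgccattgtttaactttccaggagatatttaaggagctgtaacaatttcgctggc
Akr1c15, chr17:71117958-71118207, minus strand: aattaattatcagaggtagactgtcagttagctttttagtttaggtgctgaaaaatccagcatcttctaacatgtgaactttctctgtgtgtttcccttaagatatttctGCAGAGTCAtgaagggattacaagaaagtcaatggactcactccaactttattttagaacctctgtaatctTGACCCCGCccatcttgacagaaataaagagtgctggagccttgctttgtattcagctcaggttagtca
Igtp, chr10:42874797-42875046, plus strand: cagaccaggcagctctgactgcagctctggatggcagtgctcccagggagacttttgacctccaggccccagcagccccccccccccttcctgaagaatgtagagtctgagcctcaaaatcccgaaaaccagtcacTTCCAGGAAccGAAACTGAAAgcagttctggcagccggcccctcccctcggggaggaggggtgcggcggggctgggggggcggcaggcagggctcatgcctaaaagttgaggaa
Akr1c15 held 2 matches to the first motif, which at least once is in 10.1% of 33469 promoter windows of this length. Igtp held 1 match to the second (7.67% of windows) and 1 to the third (3.41%). Akr1c14 held 1 match to the third. The matches describe these letters and are not measured sites.

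The next 6 genes with symbols that were higher at 24 h are given as values, since none passed the test. Rgs4, a regulator of G protein signalling, lay at -4.01, -4.08 and -3.86 at 6 h and at -1.87, -1.26 and -1.36 at 24 h (difference 2.48 ± 0.57, SE; adjusted p = 0.0743), while its other kept probe was lower at 24 h by 0.72 on the mean (-2.24 to -2.96). Synpr, a synaptic vesicle protein gene, differed by 2.53 ± 0.57 (adjusted p = 0.0723) and was above background on none of the 6 h arrays, so that its fold is only bounded, at 1.76 or more. C1qtnf7, which encodes a secreted C1q-like protein, differed by 2.16 ± 0.49. Its adjusted p was 0.0743. Adgrl3, an adhesion receptor gene, differed by 1.82 ± 0.38 (adjusted p = 0.0627), while its other kept probe had a change of -0.12. Hacd3, of very-long-chain fatty acid synthesis, differed by 1.70 ± 0.36. Ermp1, a metallopeptidase gene of the endoplasmic reticulum, differed by 1.5 ± 0.33 on the probe used and by 0.44 and -0.27 on its other kept probes. The rule that chose these 6 asked for non-overlapping arrays.

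**Figure D3:**
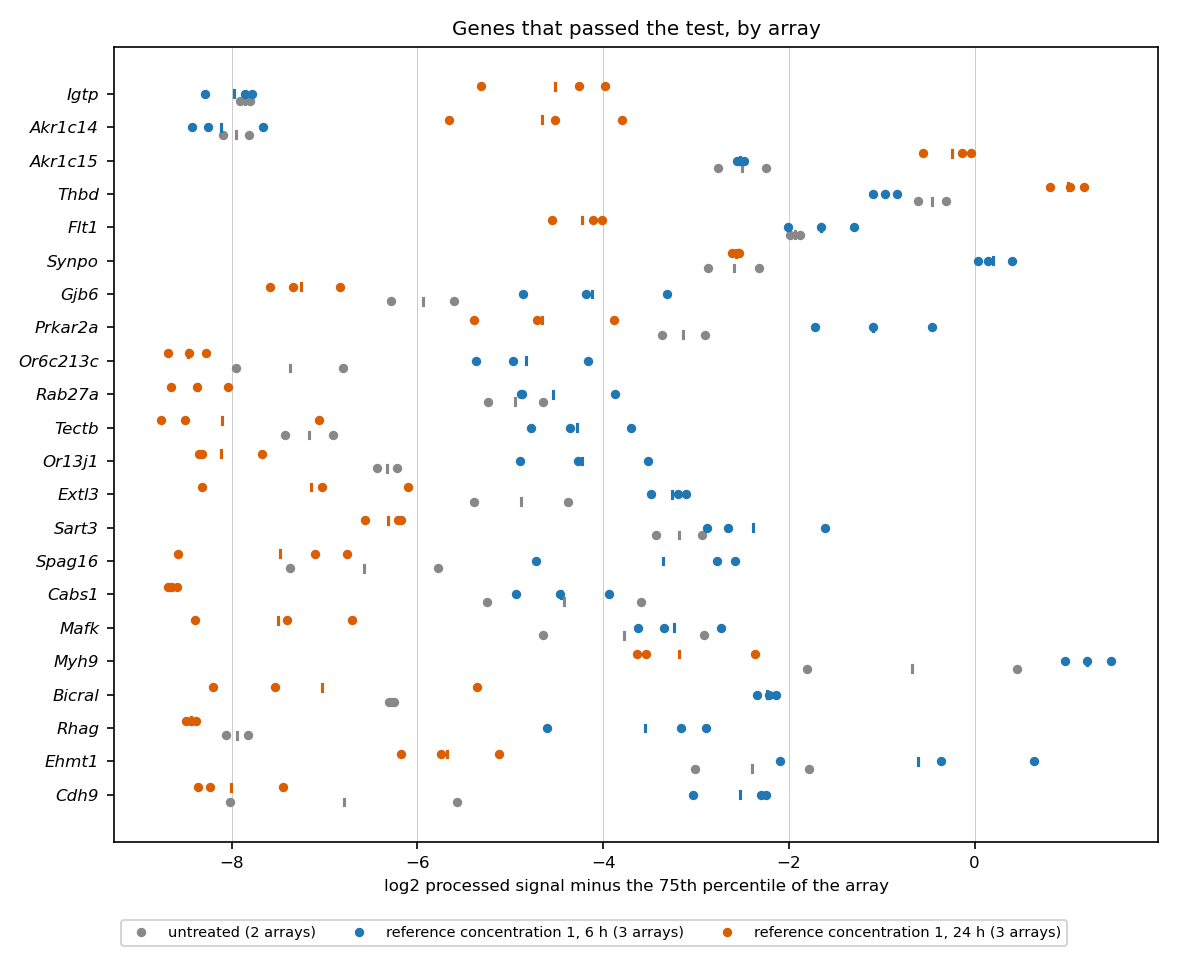
Level on each array (log2 processed signal minus the 75th percentile of the array, horizontal axis) for genes that passed the test (rows), in untreated cultures and at reference concentration 1 for 6 h and 24 h; points are arrays and short bars are means. No orange point overlaps the blue points of its gene, and for Synpo, Rhag and Tectb the grey points lie near the orange ones.

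Falls among genes with symbols covered 30 of the 54. The 15 lowest are described by what they encode.

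Myh9, the heavy chain of non-muscle myosin, lay at 0.97, 1.47 and 1.21 at 6 h and at -2.36, -3.54 and -3.64 at 24 h, and was well above background on all 6 arrays. It fell by 4.40 on the log2 scale (SE 0.86, 21.1-fold, adjusted p = 0.0433). Its untreated arrays, at -1.80 and 0.46, were themselves far apart. Prkar2a, a regulatory subunit of protein kinase A, lay at -1.72, -1.09 and -0.46 at 6 h and at -3.88, -4.71 and -5.39 at 24 h. That was a fall of 11.9-fold (log2 change -3.57 ± 0.69, adjusted p = 0.0406). Cdh9, a cadherin of cell adhesion, lay at -3.03, -2.25 and -2.30 at 6 h. On the 24 h arrays it was at -8.36, -7.45 and -8.23, none well above background, a fall of at least 15.2-fold (-5.48 ± 0.95, adjusted p = 0.0255). In untreated cultures Cdh9 lay at -5.57 and -8.02, neither well above background. All 3 lost the call in every fit that left out 1 of the 6 arrays, where the highest adjusted p was 0.209, 0.213 and 0.12 in the order given.

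Ehmt1, a histone lysine methyltransferase, lay at -2.10, -0.36 and 0.64 at 6 h and at -5.12, -6.18 and -5.75 at 24 h. It fell (-5.07 ± 1.02, adjusted p = 0.0499), and since 1 of the 3 arrays at 24 h was not well above background, the 33.7-fold difference of the means is not exact. Bicral, a subunit of a SWI/SNF chromatin complex, was at -2.21, -2.14 and -2.34 at 6 h and at -7.54, -8.20 and -5.36 at 24 h, with 1 of 3 arrays well above background there. In untreated cultures it was at -6.31 and -6.25, neither well above background. Its change was -4.80 ± 0.67 (adjusted p = 0.00699), and it passed in 5 of the 6 fits that left out an array. Mafk, a small Maf protein that pairs with NRF2 at antioxidant elements, was at -3.34, -2.73 and -3.63 at 6 h and at -6.70, -8.40 and -7.41 at 24 h, at least 9.32-fold lower (-4.27 ± 0.83, adjusted p = 0.0406). Sart3, which helps to rebuild spliceosome particles, fell at least 15.3-fold (-3.94 ± 0.66, adjusted p = 0.0255). Its arrays ran from -2.88 to -1.61 at 6 h and from -6.57 to -6.18 at 24 h. None was well above background at 24 h, but these signals were brighter than the dimmest marked ones, so the bound equals the plain fold. Ehmt1, Mafk and Sart3 passed in none of the fits without 1 of the 6 arrays, with adjusted p up to 0.246, 0.246 and 0.113.

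Extl3, an enzyme of heparan sulphate synthesis, fell at least 8.56-fold, from -3.11, -3.49 and -3.19 to -6.10, -8.32 and -7.03 (adjusted p = 0.0205; passed in 1 of 6 fits that left out an array). Rab27a, a small GTPase of vesicle secretion, fell at least 3.76-fold, with an adjusted p of 0.0316. For Rab27a the 24 h arrays lay between -8.66 and -8.04 and the 6 h arrays between -4.88 and -3.87.

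The other 6 of the 15 are genes best known outside the heart. Rhag encodes the Rh-associated glycoprotein of red cells, Cabs1 and Spag16 encode proteins of developing sperm, Tectb a protein of the tectorial membrane of the ear, and Or13j1 and Or6c213c odorant receptors. None was well above background on any 24 h array, and Rhag, Spag16, Tectb, Or13j1 and Or6c213c were at background in both untreated arrays too. Their bounds were at least 7.45-fold for Rhag, 8.56-fold for Spag16, 4.65-fold for Or13j1, 4.51-fold for Tectb, 4.0-fold for Cabs1 and 3.06-fold for Or6c213c. Adjusted p was 0.00215 for Rhag and 0.0316 to 0.0455 for the other five. Rhag alone among them passed in all 6 fits that left out an array. For Spag16 the probe used had a change of -4.13, while other probes of the gene, which the filter left out, had changes of -0.05 and -1.39.

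Rhag lay at -4.61, -3.16 and -2.89 at 6 h, at -8.44, -8.39 and -8.49 at 24 h, and at -7.83 and -8.06 untreated. The result rests on 1 of the gene's 2 probes. The other was not well above background on any of the 6 arrays and had means of -7.51 at 6 h and -7.29 at 24 h. Without the filter on dim probes it stood for the gene, and the change became 0.22 (adjusted p = 0.98). Both probes are shown, on build rn3. The file's positions for the first are further apart than its 60 bases:
Rhag probe that fell, chr9:15943788-15944670, minus strand: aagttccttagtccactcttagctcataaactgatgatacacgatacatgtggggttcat
Rhag probe at background, chr9:15938257-15938316, minus strand: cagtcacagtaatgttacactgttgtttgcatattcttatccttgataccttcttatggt

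Among the falls outside the 15, 3 were chosen for description after their values were seen. Synpo encodes synaptopodin, an actin-binding protein of podocytes and dendritic spines. It lay at 0.04, 0.40 and 0.15 at 6 h, and at -2.55, -2.61 and -2.54 at 24 h, the same level as untreated cultures (-2.32 and -2.87). It fell 6.79-fold (-2.76 ± 0.43, adjusted p = 0.0145) and passed in 2 of 6 fits that left out an array (adjusted p 0.0426 to 0.0876). Nf2, the gene of the tumour suppressor merlin, went from -2.22, -2.68 and -1.83 to -5.48, -5.46 and -5.52, or 9.44-fold lower (adjusted p = 0.0316). Gjb6, a gap junction connexin, was at -4.86, -3.31 and -4.19 at 6 h and at -7.34, -6.83 and -7.59 at 24 h, where none was well above background. It fell at least 5.04-fold (-3.14 ± 0.44, adjusted p = 0.00699) and passed in all 6 of those fits. Nf2 passed in none of them (adjusted p up to 0.162).

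The 31 gene lists cover heart muscle, metabolism, stress, growth, signalling and the cell types such a culture can hold. In the test over all arrays 5 of their members passed: Thbd and Flt1 among endothelial genes, Akr1c14 among prostanoid genes, Igtp among interferon-stimulated genes and Rhag among erythroid genes. For every other list 0 members passed in either direction, so the lists are described by counts and medians beside the median of all genes, -0.09. The sign of a list's median often followed the scaling: 22 of the 31 medians changed sign under another scaling, 20 of them with median centring. The 9 that kept their sign in every setting tried were the medians of the fibroblast, TGF-beta, cell cycle, p53, clock, smooth muscle, epithelial and leukocyte lists, all 8 below 0, and of the neuronal list, above 0. The fibroblast, TGF-beta and cell cycle medians, each -0.37, kept it only narrowly, since median centring moved the median of all genes by 0.36. Higher and lower below refer to the 75th percentile scale. The counts from the fit on the 6 arrays are to be read beside its background of 8.28%. Dim genes were lower as a whole. In the dimmest of the 4 groups by mean signal the median was -0.50, with 72.5% of genes below 0. The next group had -0.27 and 64.3%. Medians and counts of dim lists, among them the clock, leukocyte and epithelial lists, are to be read beside these values.

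**Figure D4:**
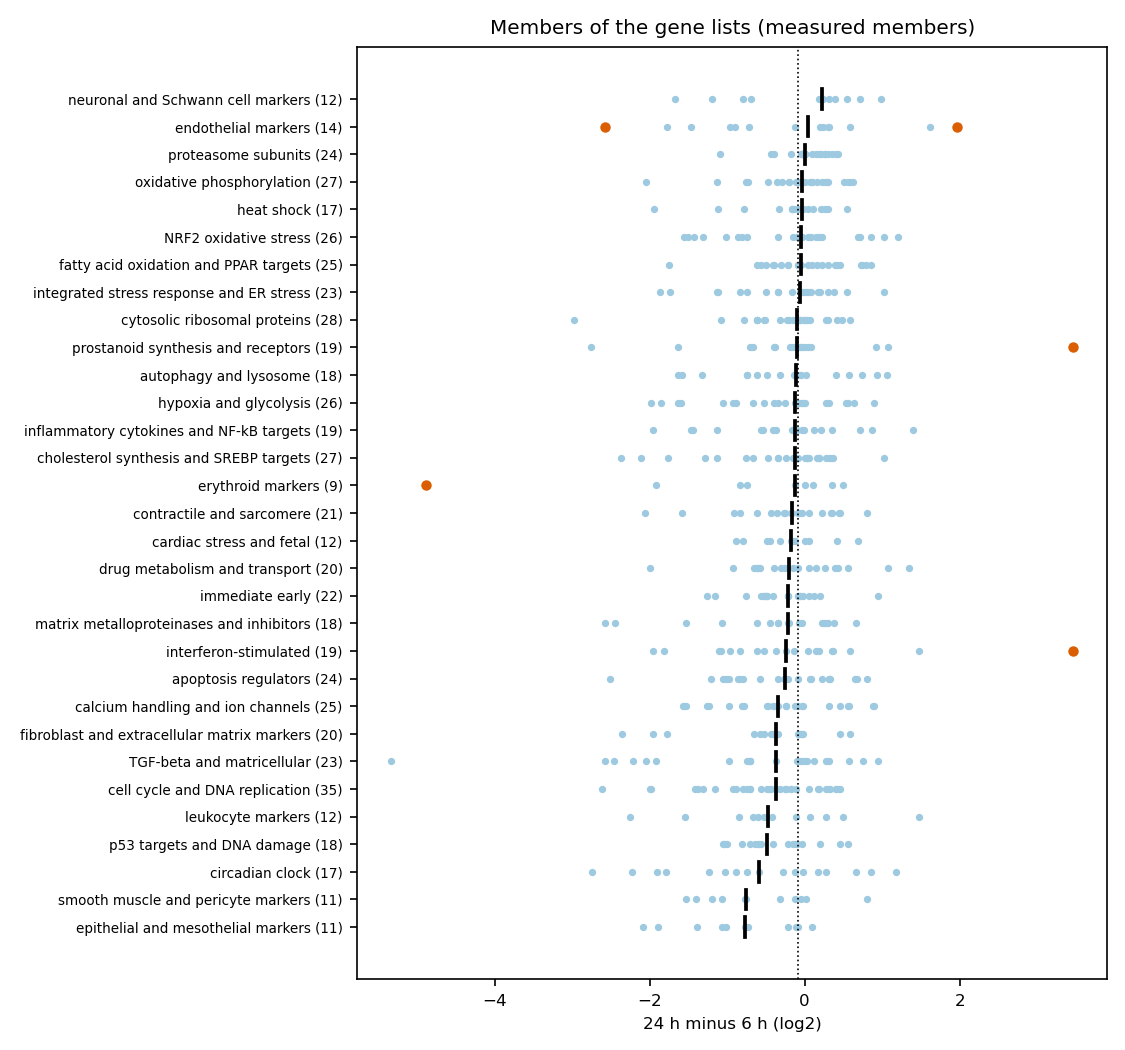
Change from 6 h to 24 h (log2, horizontal axis) of each measured member of the gene lists (rows, with the number measured); orange points passed the test, black bars are list medians and the dotted line is the median of all genes. Medians run from -0.77 (epithelial and mesothelial markers) to 0.23 (neuronal and Schwann cell markers), and 5 members passed.

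Of 21 contractile and sarcomere genes, 7 were higher and 14 lower (median -0.16). The probes used were saturated on at least 1 of the 6 arrays for 4 of them, and a saturated probe can hide a change. Other kept probes could differ, as for Myl2, a myosin light chain (0.44 on the probe used and -1.29 on the other), and Myom1, a protein of the M line (-0.43 on the probe used and -3.49 to -0.30 on the others). Actn2, which encodes the alpha-actinin of the Z disc, had a change of -2.06 ± 0.83 (adjusted p = 0.296), with 24 h arrays at -0.85, -3.63 and -1.87. Ckm, muscle creatine kinase, had a change of -1.58 ± 0.50 (adjusted p = 0.196) and was the member called by the fit on the 6 arrays (adjusted p = 0.0377). Of 12 cardiac stress and fetal genes 8 were lower (median -0.17), with 4 saturated on at least 1 array. Nppb, the natriuretic peptide gene raised in strained heart muscle, was saturated at both times, and Nppa was at -0.33 at 6 h and 0.09 at 24 h. In that list the smallest p values belonged to Rcan1, a calcineurin regulator (0.69 ± 0.43, adjusted p = 0.501), and to Tnfrsf12a, the TWEAK receptor gene (-0.88 ± 0.61, adjusted p = 0.548).

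Calcium handling and ion channel genes had a median of -0.35, with 19 of 25 lower. Cacna1d, a pore subunit of L-type calcium channels used in pacemaker cells, lay at -1.77, -0.92 and -1.42 at 6 h and at -2.42, -2.97 and -3.42 at 24 h. The change was -1.57 ± 0.34 and just missed the threshold (adjusted p = 0.0671), while a second kept probe had a change of -0.27. Sln, the sarcolipin gene of the calcium pump, had a change of -1.56 ± 0.61 (adjusted p = 0.282).

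Fatty acid oxidation and PPAR target genes were 12 higher and 13 lower (median -0.05), and oxidative phosphorylation genes 13 higher and 14 lower (median -0.03), with 3 of 25 and 7 of 27 saturated on at least 1 array. Ech1, of unsaturated fatty acid oxidation, was 0.79 ± 0.33 higher (adjusted p = 0.314). Cpt1b, the muscle form of the carnitine transferase that admits fatty acids to mitochondria, was 0.85 ± 0.45 higher (adjusted p = 0.42), but its other kept probe had a change of -2.33. Sdhc, of respiratory complex II, had a change of -0.76 ± 0.28, with all 3 of its 6 h arrays saturated, and Ndufs1, of complex I, one of -1.13 ± 0.57 (adjusted p = 0.261 and 0.395). In both lists the fit on the 6 arrays called 0 members, against 8.28% of all genes.

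Glycolysis and hypoxia genes were lower for 20 of 26 members (median -0.12). Hk2, the hexokinase of muscle and growing cells, lay at -2.8, -2.89 and -3.0 at 6 h and at -4.27, -4.80 and -5.16 at 24 h. Its change of -1.85 ± 0.39 missed the threshold (adjusted p = 0.0633). Epas1, the HIF-2 alpha gene, had a change of -1.64 ± 0.63 (adjusted p = 0.274). The fit on the 6 arrays called 3 of the 26 (11.5%), each lower. Of the 26, 8 were saturated on at least 1 of the 6 arrays. Of 27 cholesterol and SREBP genes, 15 were lower (median -0.13). Srebf2, the regulator of cholesterol synthesis, had a change of -2.11 ± 0.65 (adjusted p = 0.179), and both of its probes were not well above background on any 24 h array. Scd, a fatty acid desaturase, was 1.02 ± 0.50 higher (adjusted p = 0.376).

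Stress programmes were likewise without a call in the test over all arrays. The integrated stress response and ER stress list had 10 genes higher and 13 lower (median -0.06). Sesn2, a leucine sensor induced by ATF4, had a change of -1.86 ± 0.58 (adjusted p = 0.185), and Phgdh, of serine synthesis, one of -1.12 ± 0.39 (adjusted p = 0.232). NRF2 and oxidative stress genes had 11 higher and 15 lower (median -0.05), among them Gpx2, a glutathione peroxidase (-0.86 ± 0.38, adjusted p = 0.335), and Fth1, ferritin heavy chain (-0.81 ± 0.37, adjusted p = 0.354). Heat shock genes had a median of -0.04, with Hsph1, a chaperone gene, at -1.94 ± 0.91 (adjusted p = 0.359) and Hspa4 at 0.54 ± 0.31 (adjusted p = 0.449). The other kept Hspa4 probe had a change of -0.05. Probes saturated on at least 1 of the 6 arrays stood for 5 of 23 integrated stress and ER stress genes. This was so for 8 of 26 NRF2 genes and 6 of 17 heat shock genes. A saturated probe can hide a change, so the small medians of these lists cannot be read as stability. Among p53 targets 15 of 18 were lower (median -0.48). Gadd45g, a growth arrest gene, lay at 1.61, 1.58 and 1.74 at 6 h and at 0.94, 1.04 and 0.83 at 24 h, yet its change of -0.71 ± 0.28 did not pass (adjusted p = 0.283), nor did that of Xpc, of DNA repair (-1.05 ± 0.56, adjusted p = 0.426).

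Apoptosis regulators were 9 higher and 15 lower (median -0.26). Birc3, an inhibitor of apoptosis, lay at -3.03, -3.28 and -2.94 at 6 h and at -4.15, -4.16 and -4.0 at 24 h (change -1.02 ± 0.43, adjusted p = 0.32). Xiap, another inhibitor, had 24 h arrays spread from -6.69 to -2.40 (change -2.51 ± 0.93, adjusted p = 0.256). For cell cycle and DNA replication genes 25 of 35 were lower (median -0.37), and the fit on the 6 arrays called 3 of them (8.57%), a share near its background. Kif11, a motor of the mitotic spindle, had a change of -1.99 ± 0.65 on one probe and -1.15 on the other (adjusted p = 0.209 for the first). Plk1, a mitotic kinase, had a change of -1.15 ± 0.47 (adjusted p = 0.303).

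In the prostanoid list, 5 of 19 genes were higher and 14 lower (median -0.10), and Akr1c14 was the member that passed. The drug's targets did not pass: Ptgs1 had a change of -0.38 ± 0.57 (adjusted p = 0.855) and Ptgs2 one of -0.66 ± 0.61 (adjusted p = 0.681). Interferon-stimulated genes were 8 higher and 11 lower (median -0.24), with Igtp the member that passed. Rsad2, an antiviral gene of the same list, was at -5.82 at 6 h and -4.35 at 24 h (1.47 ± 0.40, adjusted p = 0.129), whereas Irf1 (-0.52 ± 0.34) and Mx1 (-0.96 ± 0.42) were lower on the mean.

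Inflammatory genes were 6 higher and 13 lower (median -0.13). Cxcl1, a neutrophil chemokine, lay at -1.68, -1.43 and -1.68 at 6 h and at -0.33, 0.27 and -0.53 at 24 h (1.40 ± 0.66, adjusted p = 0.361; adjusted p = 0.0316 with only the 6 arrays). Il1rn, the interleukin-1 receptor antagonist, had a change of -1.46 ± 0.49 (adjusted p = 0.211). Immediate early genes were lower for 18 of 22 members (median -0.21), with the smallest p for Ier2 (-0.52 ± 0.30, adjusted p = 0.452) and Fosb (-0.76 ± 0.46, adjusted p = 0.484). Drug metabolism and transport genes had 8 higher and 12 lower (median -0.20). Cyp2j3, an epoxygenase of arachidonic acid, was 1.08 ± 0.49 higher (adjusted p = 0.343), and Ugt1a1, a glucuronidating enzyme, 1.35 ± 0.63 (adjusted p = 0.361).

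Clock genes had one of the lowest list medians, -0.59, with 12 of 17 lower. Cry2, a repressor of the clock, lay at -2.13, -2.64 and -1.53 at 6 h, at -4.53, -4.82 and -5.18 at 24 h, and at -4.85 and -3.60 untreated, so the 24 h arrays were within or near the untreated range. Its change was -2.74 ± 0.59 (adjusted p = 0.0651). At 1/5 and 1/25 its change was 0.23 and -0.06. Nfil3, a repressor of clock outputs, had a change of -1.90 ± 0.50 (adjusted p = 0.121), while Bmal1 (0.86 ± 0.27) and Per2 (1.18 ± 0.60) were higher on the mean with adjusted p of 0.193 and 0.40. The fit on the 6 arrays called 3 of the 17 (17.6%), all lower.

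The TGF-beta and matricellular list had 16 of 23 lower (median -0.37), and the fit on the 6 arrays called 4 (17.4%), all lower. Of the 23, 8 were saturated on at least 1 of the 6 arrays. Thbs1, the matricellular protein thrombospondin that activates TGF-beta, lay at -0.87, -0.53 and -0.61 at 6 h and at -2.97, -8.02 and -7.02 at 24 h, where 1 of 3 was well above background. Its change of -5.33 ± 1.46 did not pass in the test over all arrays (adjusted p = 0.137). In the fit on the 6 arrays alone it passed (adjusted p = 0.0377). Fibroblast and matrix markers were lower for 18 of 20 (median -0.37), with 3 called by the fit on the 6 arrays. Their summed level was between 5.33 and 5.57 on 6 h arrays, then between 4.96 and 5.33 on 24 h arrays. Of the 20, 8 were saturated on at least 1 of the 6 arrays and 4 on all 6. Among those lower were the saturated Col1a1 (-0.07) and Fn1 (-0.04), so the count and the sum include probes at the ceiling of the scanner. Col5a1, a fibrillar collagen chain, was at 1.92, 1.90 and 1.90 at 6 h and at 0.12, -1.09 and -0.37 at 24 h. Its change of -2.35 ± 0.53 (adjusted p = 0.0723) was near that of its second probe, -2.51. Col6a2 had a change of -1.96 ± 0.82 (adjusted p = 0.318). Metalloproteinase genes and inhibitors were lower for 12 of 18 (median -0.21), with Plaur, the urokinase receptor, at -1.53 ± 0.48 (adjusted p = 0.191) and Timp3 at -2.45 ± 0.83 (adjusted p = 0.22).

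Endothelial markers were 7 higher and 7 lower (median 0.04), and Thbd rose and Flt1 fell. The summed level of the list (log2 of the members' summed signal, on the same scale) ran from 2.57 to 2.79 at 6 h and from 2.98 to 3.37 at 24 h. This sum includes Thbd (means of -0.96 at 6 h and 1.01 at 24 h), so part of its rise is that of this called gene. Flt1, which encodes a receptor for VEGF, lay at -2.01, -1.65 and -1.30 at 6 h, at -4.11, -4.55 and -4.01 at 24 h, and at -1.88 and -1.99 untreated. It fell 5.93-fold (-2.57 ± 0.46, adjusted p = 0.0311), and a second kept probe had a change of -2.64. The call was lost in each fit without 1 of the 6 arrays (adjusted p 0.0615 to 0.161). Cdh5, the cadherin of endothelial junctions, had a change of -1.78 ± 0.47 (adjusted p = 0.117) and Vwf, von Willebrand factor, one of 1.62 ± 0.64 (adjusted p = 0.289), although its other probe had a change of -0.25. Both Flt1 probes are shown, since they lie far apart on build rn3 and had nearly the same change. The file's positions for the second are further apart than its 60 bases:
Flt1 probe used, chr12:8065567-8065626, plus strand: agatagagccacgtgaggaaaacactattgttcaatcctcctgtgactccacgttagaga
Flt1 second probe, chr12:7954639-7971736, plus strand: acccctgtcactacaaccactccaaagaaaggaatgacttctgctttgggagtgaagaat

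Markers of the other cell types are given for the same arrays, and their part in the results above was not tested. Smooth muscle and pericyte markers were lower for 9 of 11 (median -0.76), and their summed level was 3.91 to 4.17 at 6 h and 3.53 to 3.82 at 24 h. Myh11, smooth muscle myosin, had a change of -1.40 ± 0.53 (adjusted p = 0.264) and Cnn1, calponin, one of -1.53 ± 0.60 (adjusted p = 0.282). Epithelial and mesothelial markers were lower for 10 of 11 (median -0.77), with Krt7 at -2.09 ± 0.66 (adjusted p = 0.189) and Krt14 at -1.89 ± 0.68 (adjusted p = 0.242), while a second Krt14 probe had a change of 0.07. Their summed level was 1.21 to 1.38 at 6 h and 0.67 to 1.0 at 24 h. Leukocyte markers were 4 higher and 8 lower (median -0.47), with summed levels of 2.33 to 2.53 and 2.11 to 2.5. Ptprc, the CD45 gene, lay at -0.87, -0.67 and -0.67 at 6 h and at 0.72, 0.67 and 0.80 at 24 h (1.47 ± 0.37, adjusted p = 0.104), but a second kept probe had a change of -0.63. RT1-Da, a class II antigen gene, had a change of -2.25 ± 0.80 (adjusted p = 0.237). Erythroid markers had 4 higher and 5 lower (median -0.13), with Rhag the member that passed and a summed level between 1.16 and 1.46 on 6 h arrays, then between 0.68 and 1.16 on 24 h arrays. Neuronal and Schwann cell markers were 8 higher and 4 lower (median 0.23), with Nefm, a neurofilament gene, at 0.98 ± 0.31 (adjusted p = 0.193).

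Proteasome and ribosomal protein genes were often at the ceiling of the scanner, with 9 of 24 and 13 of 28 probes saturated on at least 1 of the 6 arrays, so their small changes cannot be read as stability. Dimmer kept probes were lower for Psmd2 (-1.07, against -0.05 on the probe used), Rpl27 (-0.70 against -0.20) and Rpl13 (-0.59 against -0.10). Proteasome subunits were 13 higher and 11 lower (median 0.01), with Psmd11 at -1.09 ± 0.79 (adjusted p = 0.568) and Psmd4 at -0.40 ± 0.30 (adjusted p = 0.59). Cytosolic ribosomal protein genes had a median of -0.10, with 20 of 28 lower. Rplp0 stood apart from the others, with 24 h arrays at -1.43, -5.65 and -0.57 (-2.98 ± 1.88, adjusted p = 0.504), and Rps4x had a change of -0.62 ± 0.31 (adjusted p = 0.38). Autophagy and lysosome genes were lower for 12 of 18 (median -0.11). Sqstm1, the autophagy receptor p62, had a change of -1.58 ± 0.49 (adjusted p = 0.185), and its 4 other probes had changes of -1.48 to -0.22. Atg12, a ubiquitin-like protein of autophagosome formation, was 1.06 ± 0.49 higher (adjusted p = 0.355), but its other kept probe had a change of 0.10.

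The same comparison of 24 h with 6 h was made at the lower concentrations, and the difference from concentration 1 was tested directly. Reference concentration 1/5 had 30 calls (0.0983% of 30505), with 15 higher and 15 lower (0.0492% each), and 1/25 had 0 calls (0.0%) by limma, with 10073 and 3022 genes at an unadjusted p under 0.05. Of the 71 genes called at concentration 1, 7 were also called at 1/5, among them Thbd and Akr1c15. The 54 falls had a median change of -3.42 at concentration 1, -0.94 at 1/5 and -0.78 at 1/25. The 17 rises had medians of 2.29, 1.46 and 1.74. All genes had medians of -0.09, -0.09 and -0.01. Of the falls, 47 were below 0 at 1/5 and 48 at 1/25, and of the rises 17 and 16 were above 0. Since the genes were called at concentration 1, a larger change there is part of the choice.

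**Figure D5:**
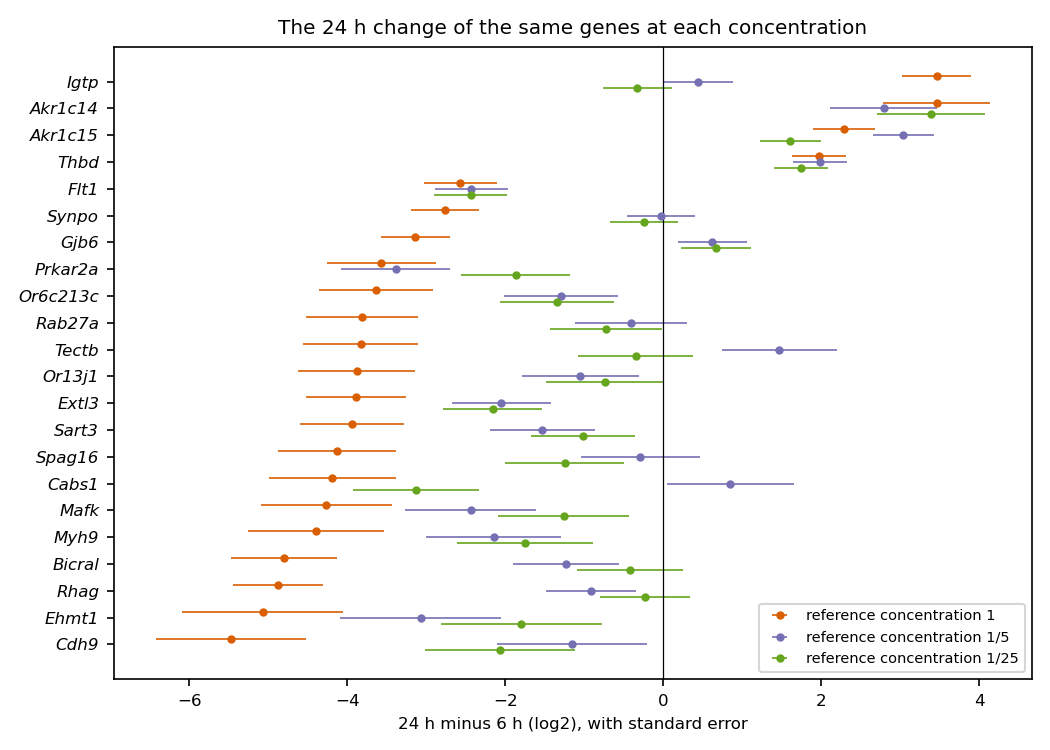
Change from 6 h to 24 h (log2, horizontal axis, with standard error) at the full concentration, at 1/5 and at 1/25 of it, for genes called at concentration 1 (rows). Most rows kept one sign at all 3, among them Flt1, Thbd, Akr1c14 and Akr1c15, and Igtp, Synpo and Gjb6 were within 0.67 of 0 at the lower 2.

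Flt1 had a change of -2.43 ± 0.46 at 1/5 and -2.44 ± 0.46 at 1/25, and Thbd of 1.98 ± 0.34 and 1.74 ± 0.34. Akr1c14 was higher by 2.79 ± 0.68 and 3.39 ± 0.68, and Akr1c15 by 3.04 ± 0.39 and 1.61 ± 0.39. At 1/5, Thbd (adjusted p = 0.0369) and Akr1c15 (adjusted p = 0.00474) passed, and Flt1 (adjusted p = 0.0535) and Akr1c14 (adjusted p = 0.0839) did not. At 1/25 none of the 4 passed, with adjusted p of 0.13 for Flt1 and Thbd, 0.137 for Akr1c14 and 0.274 for Akr1c15. Synpo (-0.03 ± 0.43 and -0.24 ± 0.43), Igtp (0.44 ± 0.44 and -0.33 ± 0.44) and Gjb6 (0.62 ± 0.44 and 0.67 ± 0.44) had changes nearer 0 at the lower concentrations, though for none of the 3 did the difference from concentration 1 pass the test.

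In the direct test, 1 gene differed between concentrations 1 and 1/5 (0.00328% of 30505; 1560 at an unadjusted p under 0.05). It is LOC291521, a spindlin-like locus, at -5.09 ± 0.64 (adjusted p = 0.0121). At concentration 1 it fell at least 6.24-fold (-4.70 ± 0.45), with no 24 h array well above background, and its change at 1/5 was 0.40 ± 0.45. The size of this difference rests in part on signals at background and is not exact. Against 1/25 the test called 0 genes (783 at an unadjusted p under 0.05). Igtp differed by 3.02 ± 0.62 from 1/5 (adjusted p = 0.603) and by 3.79 ± 0.62 from 1/25 (adjusted p = 0.199), Gjb6 by -3.81 ± 0.62 from 1/25 (adjusted p = 0.199) and Rhag by -4.66 ± 0.80 (adjusted p = 0.218). Chrnb1, an acetylcholine receptor subunit gene, differed by 2.62 ± 0.56 from 1/5 (adjusted p = 0.625), and the expressed sequence TC555471 by 1.95 ± 0.43 from 1/25 (adjusted p = 0.679).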

How the data were processed

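Per the file headers, the scanner files came from Agilent Feature Extraction 9.5.3.1 and hold an intensity for each spot, with spatial and multiplicative detrending switched on, and not scaled between arrays. The deposited series table holds a ratio: by comparison with the scanner values, the processed signal over the array median and over the mean of the 2 untreated arrays. It served as an alternative. Each array's log2 processed signal was reduced by its 75th percentile over non-control spots, outlier spots were left out and spots of a probe averaged. A probe was kept if some group had it well above background on all its arrays (35069 of 41012), and the brightest stood for a gene (30507 genes). Symbols were updated by accession for 10735 probes, symbol for 5577 and synonym for 3730, and 20970 kept the file's name. Positions are on build rn3.

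Group means over 20 arrays were fitted with limma 3.58.1 in R 4.3.3 (empirical Bayes moderation, two-sided tests, Benjamini-Hochberg, threshold 0.05). Single array measures were compared by exact permutation in Python 3.11.15 with scipy. On simulated arrays of this comparison (30067 unchanged genes) the fit recovered 2 of 68 genes changed by 1 (log2), 28 of 66 changed by 2 and 54 of 66 changed by 4, with 0 false calls. The fit on the 6 arrays alone recovered 3, 40 and 57 of them, with 4 false calls. The simulated spread was normal, with no background floor, no slide or scan day difference and no 3' to 5' difference. These counts therefore do not cover errors from those sources. Named genes are the 15 highest and 15 lowest called with a change of at least 1, non-overlapping arrays and a gene symbol, filled to 10 where fewer than 10 passed, with up to 3 passing members of each of 31 lists or otherwise the 2 of smallest p, and by the same steps for the concentration differences. The members and lists were chosen with earlier results of these data known. The number of arrays limits the precision. Alternatives changed normalization, background correction, filter, probe rule, arrays, weights, moderation and blocks. For 2 list members that the naming rule picked, the result is not reported here.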

Additional observations from a re-analysis of the deposited data

Results flagged for a closer look

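LOC291521, a spindlin-like locus, changed differently with time at 2 concentrations in a direct test: the difference between concentration 1 and 1/5 was -5.09 ± 0.64 (log2, SE; limma, adjusted p = 0.0121). It lay at -4.32, -2.96 and -4.15 at 6 h and at -8.49, -8.45 and -8.57 at 24 h under concentration 1, and at -7.92 and -8.17 in untreated cultures. It was well above background on the 3 arrays at 6 h and on none at 24 h or untreated. The fall is therefore bounded at 6.24-fold or more, and the size of the difference is not exact. The difference from 1/25 was -3.60 ± 0.64 (adjusted p = 0.226). The call was lost without any one of the 3 arrays at 24 h (0 genes each time).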

How the results depend on the processing

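The number of genes called at concentration 1 (71) depended on the processing. It was 319 with quantile normalization (204 higher and 115 lower, against 17 and 54), 127 with normexp background correction, 27 with median centring and 27 with the deposited table. Trend and robust moderation gave 47, slide as a random block 982, and array weights 13622, where 1 array at 24 h had a weight of 8.07. The slide block had a negative correlation within slides (-0.168), which lowers the standard error of a difference between slides. Counts with this block, here and below, are therefore not counts freed of slide differences. The 6 arrays alone gave 2526, and without replicate 3 of the 24 h cultures at 1/5, an array with 64.1% of probes well above background, the count was 477; both held all 71. Probes above background on all 6 arrays gave 0. The other filter, percentile and probe rules gave 80 to 97. Leaving out each array of the comparison in turn gave 9 to 33, and 7 of the 71 passed in all 6 such fits. The replicate numbers as a block gave 26, but the numbers were not taken to pair the arrays, since deviations of same-numbered arrays correlated at -0.139, -0.017 and 0.0375.

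For the difference from 1/5 (1 gene), quantile normalization, normexp, probes above background on all 6 arrays, trend and robust moderation and the replicate block each gave 0, no filter 2, slide as a random block 5 and array weights 1003, with 0 to 1 when an array was left out. For the difference from 1/25 (0 genes), the percentile over probes above background on all arrays gave 1, slide as a random block 12, array weights 4797 and leaving out an array 0 to 2. At 1/5 and 1/25 the alternatives were added after seeing the data. At 1/5 (30 genes) they gave 208 with quantile normalization, 111 with that percentile, 56 with normexp, 14020 with slide as a random block, 10653 with array weights, 7 with the replicate block, 18 without its replicate 3 at 24 h and 6 to 38 with an array left out. At 1/25 (0 genes) quantile normalization gave 9, slide as a random block 31, array weights 17359 and leaving out an array 0 to 86, the highest without that same array. A fixed slide block could not be fitted.

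Of the list medians, 526 repeats stayed within the spread between arrays and 94 moved further, with the median of all genes moving by 0.12 with quantile normalization, 0.36 with median centring or the deposited table and -0.14 with the percentile over probes above background on all arrays. Over the called and named genes, the called ones kept their call in 807 repeats under an alternative, lost it in 567 and reversed in 1, and those not called stayed so in 1096, passed in 135 and reversed in 2. In those 3, Cpt1b was -0.74 with the mean of its probes, Rgs4 -0.34 with quantile normalization and Rhag 0.22 with no filter; the cause was not tested. Signals at background limit most falls to a bound.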

Other observations

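LOC291521 belongs to a family of spindlin-like loci of which 43 features were measured, a group chosen after its values were seen and given as values with no test. Spindlin is a chromatin reader that binds methylated histones. At concentration 1, 40 of the 43 were lower at 24 h than at 6 h and 7 were called, where 0.233% of all genes were. All 43 were well above background on the 3 arrays at 6 h, 24 on the 3 arrays at 24 h and 21 on both untreated arrays. The filter on dim probes fixes part of this, since 14 of the 43 were kept only through the 6 h group, where they are high. The loci resemble each other, so their signals may not be independent: the probe of the called locus XM_229373 matches that of LOC291521 at 54 of 60 positions. The others match at no more than 19 positions, but share runs of up to 21 bases with it when shifted, and the called XM_229476 a run of 16.

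Of the 17 genes that rose, 13 are expressed sequences with no symbol. Among them, AI229321 and AA899447 are measured by probes on opposite strands of one place on chromosome 13, shown in capitals where they are complementary over 54 bases (build rn3):
AI229321, chr13:69376366-69376425, plus strand: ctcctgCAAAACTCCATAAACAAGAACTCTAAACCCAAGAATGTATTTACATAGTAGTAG
AA899447, chr13:69376372-69376431, minus strand: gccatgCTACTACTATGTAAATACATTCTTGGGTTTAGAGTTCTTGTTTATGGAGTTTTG
AI229321 lay at -5.86, -7.57 and -6.82 at 6 h and at -3.55, -2.68 and -3.83 at 24 h, a rise of at least 7.64-fold (3.40 ± 0.55 on the log2 scale, adjusted p = 0.0205). On the opposite strand AA899447 lay at -6.84, -8.26 and -8.40 at 6 h and at -4.30, -2.81 and -4.24 at 24 h, at least 5.82-fold (4.05 ± 0.58, adjusted p = 0.00699). Both were also called at 1/5, with changes of 4.08 and 5.13.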
